A study of Rattus norvegicus with 6 samples.

Results

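The nuclei described here were reactive astrocytes with Cp and A2m transcripts in the rat brain after stroke. Cp encodes ceruloplasmin, the copper-carrying ferroxidase that oxidises iron for export, and A2m encodes alpha-2-macroglobulin, a protease trap and acute-phase protein. A nucleus was taken as an astrocyte when Slc1a2, Slc1a3, Aqp4, Gja1 and Gfap together gave at least 5 UMIs (unique molecular identifiers, each 1 counted molecule) and at least 0.6% of its UMIs, while Snap25, Syt1 and Rbfox3 together gave no more than 3. It was taken as a member when Cp and A2m together gave at least 2 UMIs. By this rule 154 of 1495 astrocytes were members, out of 73649 nuclei that had at least 500 UMIs, 250 to 5000 detected genes and no more than 5% mitochondrial UMIs. Members were thus chosen by their measured Cp and A2m counts, within a gate of measured marker counts, so the levels of these genes are given as descriptions with no test.

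Nuclei were taken from a coronal slab of brain of male, 12-week-old wild-type Wistar rats, 48 h after permanent middle cerebral artery occlusion (MCAO) or a sham operation. Each of the 6 libraries pooled nuclei of 1 hemisphere from several rats, so no value belongs to 1 animal. Sham L and Sham R were the left and right hemispheres of the same 4 sham-operated rats. mMCAO ipsi and mMCAO contra came from 3 rats with moderate infarcts and sMCAO ipsi and sMCAO contra from 4 rats with severe infarcts, ipsi being the right, occluded hemisphere and contra the other. The groups Sham, MCAO contra and MCAO ipsi thus held 2 libraries each, and a two-sided exact permutation test of 2 against 2 libraries cannot give a p below 0.333. After the filters the libraries held 13125 nuclei (Sham L), 13626 (Sham R), 14491 (mMCAO contra), 12948 (mMCAO ipsi), 10794 (sMCAO contra) and 8665 (sMCAO ipsi). Total counts lay between 33012945 UMIs (sMCAO ipsi) and 52513380 UMIs (mMCAO contra).

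Astrocytes clear glutamate and GABA from synapses, buffer potassium and contact blood vessels through endfeet rich in aquaporin-4. After injury they become reactive: they build up intermediate filaments of Gfap and vimentin, secrete matrix and acute-phase proteins, and near a lesion some divide. Ceruloplasmin in astrocytes is known mainly as a membrane-anchored form that works beside the iron exporter ferroportin, while transferrin, the product of Tf, carries the oxidised iron in extracellular fluid.

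The 300 bases around the start of Cp are shown because the gene chose the members, and those of Tf because it was the gene with the smallest adjusted p in the comparison of members with other astrocytes. Both were read from the RefSeq promoter table of build GRCr8, which differs from the mRatBN7.2 build of the count files, and cover 250 bases before and 50 after the start. Cp lies at chr2:104368420-104368719 on the plus strand and Tf at chr8:112695327-112695626 on the minus strand. Capitals mark TTGNNCAA, the palindromic core of C/EBP elements with its middle bases left free, found at -72 in Cp and at -115 in Tf.
Cp: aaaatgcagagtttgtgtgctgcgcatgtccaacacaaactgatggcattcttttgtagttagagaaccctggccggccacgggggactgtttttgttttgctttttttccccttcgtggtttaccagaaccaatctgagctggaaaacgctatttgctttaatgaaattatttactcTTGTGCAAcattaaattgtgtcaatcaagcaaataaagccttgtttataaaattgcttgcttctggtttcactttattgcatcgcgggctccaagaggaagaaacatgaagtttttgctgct
Tf: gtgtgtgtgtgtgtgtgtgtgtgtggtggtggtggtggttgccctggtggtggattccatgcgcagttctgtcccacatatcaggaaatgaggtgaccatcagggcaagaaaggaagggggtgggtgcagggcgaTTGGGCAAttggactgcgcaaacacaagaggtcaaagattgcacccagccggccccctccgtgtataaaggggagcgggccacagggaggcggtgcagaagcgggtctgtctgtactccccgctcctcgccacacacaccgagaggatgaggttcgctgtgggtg
TTGNNCAA reads the same on both strands and was present in 5.98% of the 33469 promoters of the table. The STAT-type motif TTCNNNGAA, also the same on both strands, was present in 8.87% and in neither of these promoters. Of the 10 genes named below as highest in members, 8 had a promoter in the table, of which 2 (Tf and Chst9) held TTGNNCAA and 0 held TTCNNNGAA. Both motifs were chosen after results were known, and a match is a string in a window that was not tested for binding.

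Members were concentrated in the occluded hemisphere and, there, in the severe infarcts. They made up 127 of 400 astrocytes in sMCAO ipsi, or 31.8% (27.2 to 36.6%, exact binomial 95% interval), and 21 of 310 in mMCAO ipsi, or 6.77% (4.24 to 10.2%). In sMCAO contra they were 4 of 191 astrocytes (2.09%, 0.573 to 5.28%), and in mMCAO contra 1 of 286 (0.350%, 0.00885 to 1.93%). Sham R held 1 of 131 (0.763%, 0.0193 to 4.18%) and Sham L 0 of 177, which allows a share of up to 2.06% at the upper bound of the same interval. Both MCAO ipsi shares were above those of the other 4 libraries, although the intervals of mMCAO ipsi and sMCAO contra overlapped, and the interval of sMCAO ipsi lay above all others. These intervals cover counting error only. Of all members 148 came from MCAO ipsi, and 82.5% came from sMCAO ipsi alone.

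**Figure D1:**
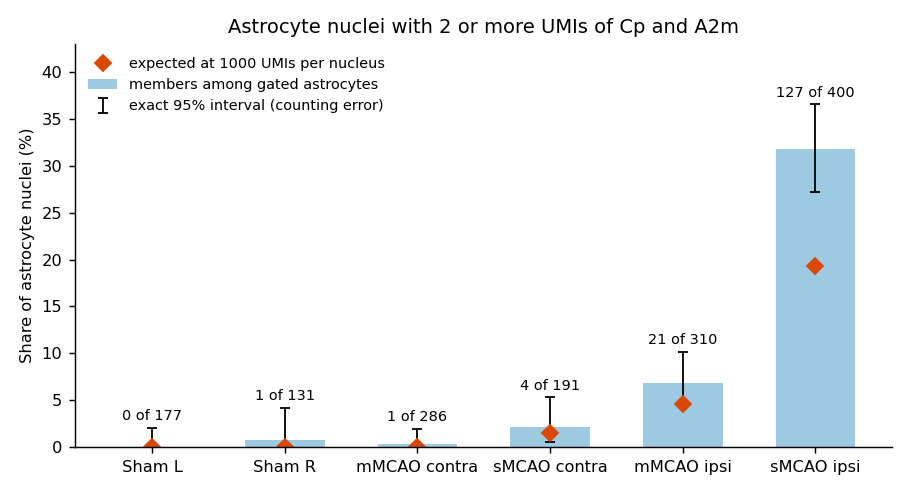
Share of astrocytes that were members (percent, y axis) in each library (x axis); bars are the measured share with its exact 95% binomial interval and diamonds are the share expected when every nucleus is thinned to 1000 UMIs. The bar of sMCAO ipsi stands at 31.8% and that of mMCAO ipsi at 6.77%, while the other 4 libraries lie at or below 2.09%.

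The depth of astrocyte nuclei was highest in the ipsi libraries, where the share was also highest. This did not hold for the libraries as a whole. Over all filtered nuclei the median was 2059 UMIs in sMCAO ipsi, the lowest of the libraries, and 3178 in mMCAO ipsi. The median astrocyte had 2337 UMIs in sMCAO ipsi and 1313 in mMCAO ipsi, against 764 in Sham L and 606 in Sham R. It had 1021 in mMCAO contra and 883 in sMCAO contra. Within Sham and within MCAO contra the library with the deeper astrocytes had the lower share. These shares rest on 0 to 4 members per library and their intervals overlap, so their order carries no weight. The relation of share to depth was not tested. A deeper nucleus reaches 2 UMIs of Cp and A2m more easily. Thinned to 1000 UMIs, with shallower nuclei left out, the expected share was 19.3% over 381 astrocytes in sMCAO ipsi and 4.60% over 229 in mMCAO ipsi. It was 1.49% over 65 astrocytes in sMCAO contra and 0 in the other libraries. Of these mMCAO contra kept 151 astrocytes, but Sham L only 21 and Sham R only 8. The 3 libraries with the highest shares thus kept their order at this depth. Their order changed in nuclei with at least 1500 UMIs. There the share was 33.1% of 326 astrocytes in sMCAO ipsi, 9.09% of 121 in mMCAO ipsi and 22.2% of only 9 in sMCAO contra. In neurons, taken as a background class on the assumption that they lack both genes, 2 or more UMIs were found in 2.32% of nuclei in sMCAO ipsi, at a median of 6487.5 UMIs, and in 0.902% in mMCAO ipsi, at a median of 3958 UMIs. At 1000 UMIs the expected shares in neurons were 0.237% and 0.109%.

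The UMIs summed over all astrocytes of a library describe the genes of the rule themselves and are no separate support for the shares, since in sMCAO ipsi members held 376 of 418 Cp UMIs and 451 of 486 A2m UMIs. All astrocytes of sMCAO ipsi held 418 UMIs of Cp and those of mMCAO ipsi 90, against 8 (mMCAO contra), 4 (sMCAO contra) and 1 each (Sham L, Sham R). For A2m these counts were 486, 39, 4, 10 and again 1 each. As CPM (counts of a gene scaled to 1000000 UMIs of the summed nuclei), A2m was at 448 in sMCAO ipsi and 87.7 in mMCAO ipsi, against 7.10 in Sham L and 11.4 in Sham R, and Cp was at 385 and 202 against 7.10 and 11.4. Both genes were thus higher in each ipsi library than in each of the other 4. As a fold in members against both Sham sums, where Cp and A2m had 1 UMI each, Cp was 256 times higher (45.7 to 10137, counting interval) and A2m 278 times (49.6 to 10995). These folds were set by the choice of members.

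Within the members Cp and A2m did not always occur together. Both transcripts were found in 77 members, Cp alone in 41 and A2m alone in 36. In sMCAO ipsi these numbers were 66, 32 and 29, and in mMCAO ipsi 8, 8 and 5. Members of sMCAO ipsi held 2 to 50 UMIs of both genes together with a median of 4, and members of mMCAO ipsi held 2 to 12 with a median of 2. Just inside the threshold, at exactly 2 UMIs, lay 32 members of sMCAO ipsi and 11 of mMCAO ipsi. Just outside it, at 1 UMI, lay 77 and 47 astrocytes, more than at 2 UMIs.

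**Figure D2:**
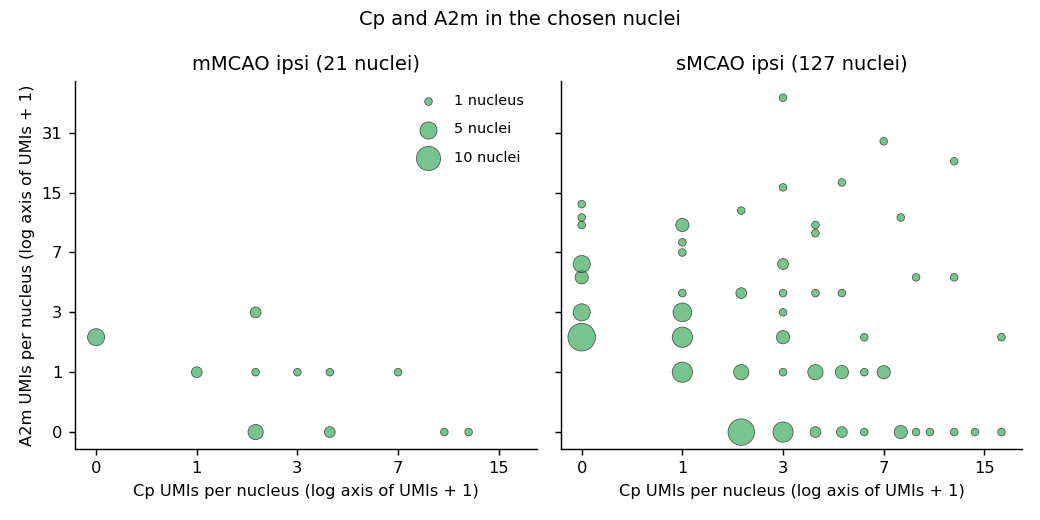
UMIs of Cp (x axis) and A2m (y axis) in single members of mMCAO ipsi (left) and sMCAO ipsi (right), both on log axes of UMIs + 1; the area of a circle gives the number of nuclei at that pair of values. Members of sMCAO ipsi reach 50 UMIs of both genes together and spread along both axes as well as between them.

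The labels of the members were checked against astrocyte markers. The 7 markers that the gate did not use stood together at 2767 CPM in members of sMCAO ipsi and 2787 in mMCAO ipsi. Their sum was 4028 and 3116 in other astrocytes there and 2350 and 2036 in Sham L and Sham R. The sum in members thus lay between those of Sham and of other ipsi astrocytes, which did not hold for each marker. Slc4a4 gave 657 of 986 UMIs in members of sMCAO ipsi and 47 of 88 in mMCAO ipsi, where Gjb6 was at 0. Of 6 such markers tested against Sham as described below, Ntsr2 and Slc39a12 were higher in members and Acsbg1 and Slc7a10 lower. Gfap, the astrocyte filament protein, was detected in 126 of 127 members of sMCAO ipsi and in all 21 of mMCAO ipsi. Among the other astrocytes of the same libraries it was detected in 239 of 273 and 241 of 289. Aqp4 was detected in 111 of 127 and 14 of 21 members. Gfap stood at 6797 and 6620 CPM in members of sMCAO ipsi and mMCAO ipsi, at 4080 and 2988 in the other astrocytes there, and at 270 and 414 in Sham L and Sham R. Slc1a2, the main glutamate transporter, ran the other way, with 4064 and 4656 in members, 5139 and 7060 in other astrocytes and 9797 and 9502 in Sham. Gfap, Aqp4 and Slc1a2 belong to the astrocyte gate, which favours nuclei that hold them, and received no test.

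Markers of other cell types were looked at in the same nuclei. The endothelial list gave 3 UMIs in members of sMCAO ipsi and 0 in mMCAO ipsi, and the choroid plexus list 2 and 1, with Ttr and Kl at 0 in both. The ependymal list gave 41 UMIs (115 CPM) in sMCAO ipsi, 33 of them from Hydin, with Ccdc153, Tmem212, Cfap126, Pifo and Sntn at 0 in both member sums. The neuron list was led by Rbfox1 (168 of 213 UMIs in sMCAO ipsi, 29 of 37 in mMCAO ipsi) and the mural list by Myh11 (90 of 114 and 9 of 10). The mural list stood at 320 CPM in members of sMCAO ipsi against 277 in other astrocytes, and at 317 against 148 in mMCAO ipsi. The list of oligodendrocyte precursors was led by Vcan (138 of 168 UMIs in members of sMCAO ipsi). It stood at 472 CPM in members of sMCAO ipsi against 239 in other astrocytes, and at 127 against 208 in mMCAO ipsi. In sMCAO ipsi 31 of 127 members and 13 of 273 other astrocytes held 3 or more UMIs of this list, and its part in the comparisons was not tested beyond leaving out nuclei with another list. Through such genes 65 of 127 members of sMCAO ipsi and 7 of 21 of mMCAO ipsi held 3 or more UMIs of another list, against 97 of 273 and 58 of 289 other astrocytes. The myeloid list gave 44 UMIs in members of sMCAO ipsi, 27 of them from Gpnmb, and 1 in mMCAO ipsi.

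Cp and A2m differed in how far they were restricted to astrocytes. In sMCAO ipsi, Cp also reached 794 CPM in ependymal-led nuclei, 672 in fibroblast-led and 568 in myeloid-led nuclei, whereas it was at 13.3 in neurons. A2m stood at 448 CPM in all astrocytes of that library, at 71.0 in fibroblast-led and 67.8 in endothelial-led nuclei, and at 5.63 in myeloid-led nuclei. Cp was thus present in several other cell types of this library, and A2m at far lower levels in those named.

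Members were then compared with the other astrocytes of the same 2 ipsi libraries, which answers what else marked these nuclei beside the genes that chose them. Cp and A2m were left out. UMIs were summed per library and class, and the sums were tested with edgeR's quasi-likelihood test with the library as a block. Calls needed a log2 difference of at least 0.6 and an adjusted p, after Benjamini-Hochberg over all genes, under 0.05. Of 6944 genes tested, 30 (0.432%) were higher and 9 (0.13%) lower in members, and the median log2 difference over all genes was -0.04. With 4 sums this test had 1 residual degree of freedom. DESeq2 on the same sums called 1 gene higher (Tf) and 0 lower, with 53 and 26 genes at an unadjusted p under 0.05, and edgeR without the library block called 2 higher (Tf and Aebp1) and 0 lower. In mMCAO ipsi 29 of the 30 higher genes were also higher by their own counts, with the exception of Emid1, and in 21 of them the 95% counting interval left out 1. In sMCAO ipsi this held for 30 and 30. All 9 lower genes were lower in both libraries, with intervals that left out 1 for 3 genes in mMCAO ipsi and 9 in sMCAO ipsi.

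Tf, which encodes transferrin, was the gene whose call held with each of the 10 settings tried, 1 of which (at least 20 nuclei per sum) left the sums unchanged. It stood at 760 CPM in members of mMCAO ipsi and 530 in members of sMCAO ipsi, against 58.1 and 117 in the other astrocytes of these libraries. Sham L had 56.8, Sham R 0, mMCAO contra 42.8 and sMCAO contra 138. Both member sums were above all 6 other sums. The log2 difference was 2.58 ± 0.30 (SE, n = 2 libraries; edgeR adjusted p = 0.000136, DESeq2 adjusted p = 0.018). Tf is also a gene of oligodendrocytes, whose marker list stood at 443 and 340 CPM in members of mMCAO ipsi and sMCAO ipsi and at 232 and 328 in other astrocytes. In members of sMCAO ipsi its most abundant gene was Mbp (58 UMIs), and Mog, Opalin and St18 were at 0 in both member sums. Without nuclei that held 3 or more UMIs of another list the call of Tf held.

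Aebp1, Sulf1, Chst9, Thbs2 and Adamtsl1 were also called higher in members by edgeR, and DESeq2 called none of them. The fibroblast marker list moved the same way. It gave 1 and 27 UMIs (31.7 and 75.8 CPM) in members of mMCAO ipsi and sMCAO ipsi, against 24.2 and 49.4 CPM in other astrocytes. It stood at 7.10 CPM in Sham L and 0 in Sham R, and its part was not tested beyond leaving out nuclei with another list. Aebp1, which encodes a secreted collagen-binding protein, stood at 285 and 326 CPM in members of mMCAO ipsi and sMCAO ipsi and at 58.1 and 63.1 in other astrocytes, with 0 UMIs in either Sham library. Its log2 difference was 2.28 ± 0.30 (SE, n = 2; edgeR adjusted p = 0.00045, DESeq2 adjusted p = 0.65), and the call was lost only with DESeq2 among the 10 settings. Sulf1, a sulfatase that trims heparan sulfate chains, stood at 317 and 219 against 38.7 and 52.1 (log2 difference 2.23 ± 0.32, edgeR adjusted p = 0.00164). Chst9, a sulfotransferase of sugar chains, was at 63.3 and 267 against 55.7 and 60.3 (1.83 ± 0.34, edgeR adjusted p = 0.0119), so its difference lay in sMCAO ipsi. Thbs2, the matrix protein thrombospondin-2, had 2 and 26 UMIs in members against 2 and 8 in other astrocytes and 0 in Sham and MCAO contra (2.80 ± 0.55, edgeR adjusted p = 0.0157). Adamtsl1, a secreted relative of the ADAMTS proteases, had 6 and 16 UMIs against 3 and 8 (2.75 ± 0.60, edgeR adjusted p = 0.0322).

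The other genes named by the rule were Lrrc55, Prkag2, Grin3a and Prkcz. Lrrc55, an accessory subunit of calcium-activated potassium channels, had the largest difference of the named genes, with 2 and 30 UMIs in members against 5 and 6 in other astrocytes (log2 difference 3.01 ± 0.58, edgeR adjusted p = 0.0134). Prkag2, a regulatory subunit of the energy sensor AMPK, stood at 380 and 233 CPM against 77.4 and 68.6 (1.84 ± 0.30, adjusted p = 0.00456). Grin3a, an NMDA receptor subunit, and Prkcz, an atypical protein kinase C, had 20 and 35 UMIs over both member sums, and their log2 differences were 2.48 ± 0.55 and 2.24 ± 0.52. DESeq2 called none of these 4 genes.

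All 9 lower genes could be named, and DESeq2 and the fit without the block called none of them. Slc6a11, the astrocyte GABA transporter GAT3, stood at 95 and 84.2 CPM in members of mMCAO ipsi and sMCAO ipsi against 140 and 270 in other astrocytes (log2 difference -1.57 ± 0.33, edgeR adjusted p = 0.0286), and at 199 and 184 in Sham L and Sham R. Kcnd2, a potassium channel subunit, stood at 538 and 345 against 1057 and 872, and at 1803 and 1852 in Sham (-1.30 ± 0.28, edgeR adjusted p = 0.0307). Itih3, a secreted protein that binds hyaluronan and is related to protease inhibitors, stood at 348 and 244 against 598 and 621, and at 1143 and 920 in Sham (-1.25 ± 0.28, adjusted p = 0.0434). For Kcnd2 and Itih3 the sums were ordered Sham, other ipsi astrocytes, members, with no overlap.

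The remaining lower genes were Nnat (neuronatin, log2 difference -2.30), Cables1 (a partner of cyclin-dependent kinases, -1.99), Prkcb (protein kinase C beta, -1.98), Gabbr2 (a subunit of the GABA-B receptor, -1.82), Shisa9 (an auxiliary AMPA receptor subunit, -1.59) and Grin2b (an NMDA receptor subunit, -1.36). Several of these genes are abundant in neurons. The estimated share of neuronal RNA was 12.1% in members of mMCAO ipsi against 8.70% in other astrocytes there, and 6.65% against 9.17% in sMCAO ipsi. After this RNA was subtracted all 9 lower genes kept their call, and the counts of called genes were 66 higher and 35 lower.

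**Figure D3:**
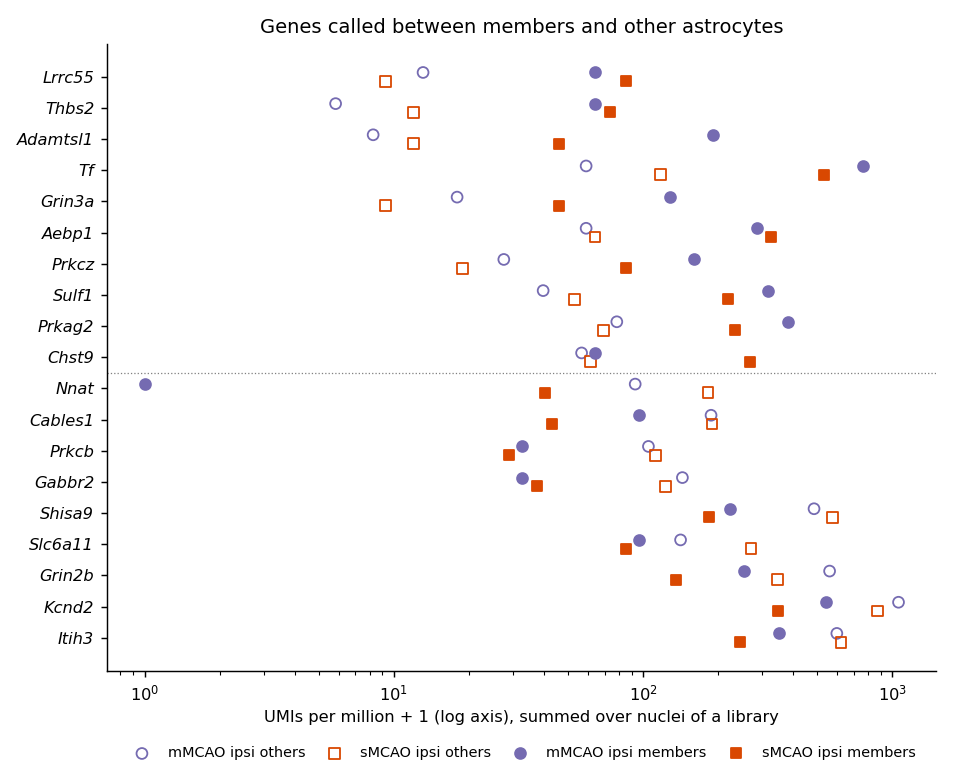
CPM + 1 (log axis) of the genes named as higher or lower in members, in members (filled) and other astrocytes (open) of mMCAO ipsi (circles) and sMCAO ipsi (squares). Tf members lie at 760 and 530 with the other astrocytes at 58.1 and 117, and Itih3 members lie below the other astrocytes in both libraries.

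By gene list, few genes passed the test between members and other ipsi astrocytes. Of the pan-reactive genes, markers of reactive astrocytes in general, 1 of 7 tested was higher (Vim) and all 7 were above 0, with a median log2 difference of 1.06. Vim, which encodes the filament protein vimentin, stood at 633 and 1266 CPM in members of mMCAO ipsi and sMCAO ipsi and at 198 and 510 in other astrocytes (1.35 ± 0.27, edgeR adjusted p = 0.0208), and its call held in 4 of 10 settings. Vim was also the 1 of 4 intermediate filament genes called, at a list median of 0.95. Of the genes of gp130 and Stat3 signalling, the cytokine route that drives acute-phase proteins, 0 of 13 were called at a median of 0.32. In that list Cebpd, a transcription factor, stood at 190 and 250 against 106 and 101 (adjusted p = 0.0822), and Stat3 at 190 and 272 against 223 and 267. Over all genes of this comparison, an unadjusted p under 0.05 was reached by 300 with a positive and 302 with a negative difference.

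The lists around the 2 genes that chose the members gave few calls. Of iron and copper handling genes 1 of 12 was higher (Tf, list median 0.11), with Fth1, the ferritin heavy chain, at 222 and 446 against 96.8 and 347 CPM (adjusted p = 0.746). Of protease inhibitors and A2m relatives 1 of 10 was lower (Itih3, median 0.31), and of extracellular proteases 0 of 11 (median 0.16). Of matrix genes and their receptors 1 of 27 was higher (Thbs2, median 0.14). Without nuclei that held 3 or more UMIs of another list, 0 of 17 tested were higher. Tnc, the matrix protein tenascin-C, stood at 728 and 1386 against 261 and 753 (adjusted p = 0.109).

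Homeostatic astrocyte genes gave 0 calls among 25 (median -0.35) and junction genes 0 among 15 (-0.34). Among receptors and transporters of glutamate and GABA, 1 of 24 was higher (Slc38a1, a glutamine transporter, at 317 and 359 against 91.9 and 132 CPM, adjusted p = 0.0119) and 2 were lower (Slc6a11 and Gabbr2), with a median of -0.38. Among guidance cues and receptors 1 of 19 was higher (Sema5a, a semaphorin, at 507 and 241 against 99.2 and 80.9, adjusted p = 0.00512), at a median of 0.04. Cilium genes gave 0 calls among 15 although 14 were above 0, with a median of 0.99. Dnah12, an axonemal dynein, stood at 665 and 168 against 70.2 and 103 (adjusted p = 0.0863). Against other astrocytes with no UMI of Cp or A2m, 5 of 14 cilium genes were higher, where 91 of all 6607 genes were. With members of at least 1 UMI against none 3 of 11 were higher, where 43 of all 5691 genes were. The ependymal marker list moved the same way, at 115 CPM in members of sMCAO ipsi against 61.7 in other astrocytes and at 31.7 against 21.8 in mMCAO ipsi, and its part in these values was not tested.

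The cell cycle list gave 0 calls among 25 (median 0.15), cytokines and chemokines 0 of 10 (-0.45), heat shock proteins 0 of 18 (-0.12), hypoxia and glycolysis genes 0 of 18 (-0.17), lipid transport and cholesterol genes 0 of 23 (0.11), injury transcription factors 0 of 15 (-0.03) and complement and antigen presentation genes 0 of 2 (0.86). Ccl2, a chemokine, had 0 and 35 UMIs in members against 7 and 144 in other astrocytes (98.2 against 197 CPM in sMCAO ipsi, adjusted p = 0.223). A missed threshold with 1 residual degree of freedom does not show that these genes were alike in both classes. On simulated counts for this comparison the test recovered 46 of 50 genes raised 4-fold but 10 of 50 raised 2-fold, and 20 of 50 lowered to 0.25-fold. The simulation gave all genes the same dispersion and the libraries no difference but size, so recovery in the real sums may differ.

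Sham held too few members for members to be compared between groups, so the members of MCAO ipsi were set against all other astrocytes of Sham. This comparison was added after the numbers of members were known. Of 5894 genes, 534 (9.06%) were higher and 467 (7.92%) lower in members, with a median log2 difference of 0.02 over all genes (edgeR, 4 residual degrees of freedom over 8 sums). DESeq2 called 191 and 213. The counts rested on sMCAO ipsi, which holds most member UMIs (356308 against 31572 in mMCAO ipsi): without it 134 genes were higher and 207 lower. Without mMCAO ipsi 834 genes were higher, without Sham L 177 were higher and 215 lower, and without Sham R 288 were higher.

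The other astrocytes of MCAO ipsi, compared with the same Sham libraries, gave 421 higher (7.84%) and 395 lower (7.36%) of 5370 genes. The comparisons share the Sham sums, so the values are given side by side and no overlap was counted. Of the pan-reactive list all 5 tested genes (Aspg, Cd44, Hspb1, Osmr and Vim) were higher in members, and all 5 were higher in the other ipsi astrocytes. Of these 5, 3 had 0 UMIs in Sham and passed the filter on low counts through the ipsi libraries, so the count is no measure of the whole list of 12. Cd44, the hyaluronan and osteopontin receptor, stood at 760 and 640 CPM in members of mMCAO ipsi and sMCAO ipsi, 431 and 495 in other ipsi astrocytes, and 7.10 and 11.5 in Sham L and Sham R. Its log2 difference to Sham was 6.11 ± 0.47 in members (edgeR adjusted p = 6.53e-08) and 5.65 ± 0.45 in others (edgeR adjusted p = 5.33e-07).

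By fitted log2 difference, the 10 largest increases against Sham were all of genes with 0 UMIs in both Sham sums. Each fold is thus a lower bound against 3 UMIs over both sums (13.2 CPM). Such bounds cannot be ranked against the folds of genes with counts in Sham, such as Cd44 and Ncan. Vim was at least 92.2-fold higher in members. Hspb1, the small heat shock protein Hsp27, was at least 25.6-fold higher, Aebp1 at least 24.5-fold, Chst9 at least 19.0-fold and Tagln, the actin-binding protein transgelin, at least 12.1-fold. The rest were genes of dividing cells: Cenpf at least 17.4-fold, Top2a 15.5-fold, Mki67 14.1-fold, Ect2 11.5-fold and Kif18a 11.4-fold. The mural marker list moved with Tagln, at 317 and 320 CPM in members of mMCAO ipsi and sMCAO ipsi against 170 and 104 in Sham L and Sham R. Myh11 of that list was called higher against Sham, and the part of mural markers was not tested. Chst9, Cenpf, Top2a, Mki67, Tagln and Ect2 lost their call without sMCAO ipsi, while Vim, Hspb1, Aebp1 and Kif18a kept it in each of the settings tried.

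Of the cell cycle list 19 of 22 tested genes were higher in members than in Sham, and 13 of 22 with DESeq2. Its median log2 difference was 5.09, or 2.79 with the 10 genes at 0 in Sham set to their bound. Those 10 passed the filter on low counts through the ipsi libraries, where they are high, so the share is no measure of the whole list of 29. Without sMCAO ipsi 2 of 16 were higher. In the other ipsi astrocytes 18 of 18 tested genes were higher than in Sham, with the same limit, since 18 of 29 passed the filter. Mki67, the proliferation antigen, had 71 UMIs in members of sMCAO ipsi and 1 in members of mMCAO ipsi, and 89 and 43 UMIs in the other astrocytes of these libraries. As CPM this was 199 and 31.7 in members and 122 and 104 in others, so the order of members and others differed between the libraries. The marker list of oligodendrocyte precursors stood at 472 and 127 CPM in members of sMCAO ipsi and mMCAO ipsi. In Sham L and Sham R it stood at 28.4 and 230. Vcan of that list was called higher in members than in Sham, and the part of these markers was not tested.

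Of matrix genes 13 of 24 were higher and 0 lower in members against Sham (median log2 difference 1.75, or 1.10 with 6 genes at their bound), and 4 of 24 with DESeq2. The 6 genes had 0 UMIs in Sham and passed the filter through the ipsi libraries, so the count is no measure of the whole list. Without sMCAO ipsi it was 5 of 17 at a median of 0.34, without Sham L 4 of 28, without Sham R 5 of 28, and with neuronal RNA subtracted 6 of 23. The other ipsi astrocytes, under the same filter on low counts, had 10 of 19 matrix genes higher than Sham and 0 lower (median 1.06). Tnc stood at 728 and 1386 CPM in members of mMCAO ipsi and sMCAO ipsi against 106 and 173 in Sham L and Sham R (3.05 ± 0.46, edgeR adjusted p = 0.000103). Ncan, the proteoglycan neurocan, stood at 538 and 511 against 21.3 and 11.5 (4.78 ± 0.44, edgeR adjusted p = 7.43e-07), with 242 and 299 in other ipsi astrocytes. Sema5a and Sema6a were higher and Robo1 lower among 18 guidance genes, of which 3 were higher and 3 lower. Other ipsi astrocytes had 2 of 17 guidance genes higher (Nrp2 and Sema6a) and 3 lower (Robo1, Robo2 and Unc5c).

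Of iron and copper genes 5 of 11 were higher in members than in Sham (Fth1, Mt2A, Mt3, Slc39a14 and Tf), and 1 of 11 without sMCAO ipsi. The other ipsi astrocytes had 4 of 11 higher than Sham (Fth1, Mt2A, Mt3 and Slc39a14). In members Fth1 stood at 222 and 446 CPM against 42.6 and 57.5 in Sham (2.97 ± 0.61, edgeR adjusted p = 0.00153). Tf passed the test in members (3.99 ± 0.58, edgeR adjusted p = 7.5e-05), while in the other ipsi astrocytes its log2 difference to Sham was 1.37 ± 0.70 (edgeR adjusted p = 0.221). The test of members against other ipsi astrocytes given above is the test of that difference. Of gp130 and Stat3 genes 5 of 10 were higher (Bcl3, Cebpd, Jak2, Osmr and Stat3), and of protease inhibitors 4 of 8 were higher (Cst3, Serpine2, Serping1 and Serpinh1) and 1 lower (Itih3). With DESeq2 these counts were 2 of 10, and 1 higher and 1 lower of 8. Without sMCAO ipsi the median log2 difference of the protease inhibitors turned from 1.26 to -0.20. That of the gp130 and Stat3 genes was 0.91 with sMCAO ipsi and 1.24 without it. In each of these lists 2 tested genes had 0 UMIs in Sham and passed the filter through the ipsi libraries, so the counts are no measure of the whole lists. In the other ipsi astrocytes 4 of 8 gp130 and Stat3 genes were higher than in Sham (Cebpd, Jak2, Osmr and Stat3). Of protease inhibitors 2 of 7 were higher there (Cst3 and Serpinh1) and 1 lower (Itih3). The same filter on low counts chose the genes tested.

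Of homeostatic genes 12 of 25 were lower and 3 higher in members than in Sham (median log2 difference -1.01). Gpc5, a glypican abundant in resting astrocytes, stood at 5670 and 6225 CPM in members against 15462 and 13356 in Sham (-1.36 ± 0.23, edgeR adjusted p = 0.000238). Trpm3, a cation channel, stood at 1742 and 794 against 2620 and 2381, with 2562 and 2206 in other ipsi astrocytes. In those other astrocytes 6 of 25 were lower and 3 higher (median -0.39). Without Sham L the count in members was 5 lower of 26. Among glutamate and GABA genes 6 of 25 were lower and 1 higher in other ipsi astrocytes, and 8 of 25 were lower and 3 higher in members. Without sMCAO ipsi 3 of 23 were lower and 1 higher, and without Sham L 5 were lower and 1 higher. Neuronal markers were also at lower levels than in Sham, with the list of 7 at 598 and 1172 CPM in members of sMCAO ipsi and mMCAO ipsi against 2194 and 2393 in Sham L and Sham R. With neuronal RNA subtracted 8 of 23 glutamate and GABA genes were lower and 2 higher. Cilium genes gave 7 higher of 12 in members, 3 with DESeq2 and 2 without sMCAO ipsi, and 1 of 8 in other ipsi astrocytes, while the direct comparison of members with other astrocytes called 0 of 15. The ependymal markers moved with this list, at 115 and 31.7 CPM in members of sMCAO ipsi and mMCAO ipsi against 28.4 and 11.5 in Sham L and Sham R, and their part was not tested.

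The remaining lists are read against the 9.06% of all genes higher and 7.92% lower. Heat shock genes gave 4 higher of 15 in members and intermediate filament genes 2 of 3 (Plec and Vim). Junction genes gave 4 higher and 1 lower of 15, lipid genes 4 and 3 of 21, hypoxia and glycolysis genes 2 and 2 of 17, cytokines 2 and 1 of 6, extracellular proteases 3 and 0 of 8, injury transcription factors 2 and 0 of 13, and complement genes 1 and 0 of 2. In each of the heat shock, filament, cytokine and complement lists 1 tested gene had 0 UMIs in Sham. It passed the filter on low counts through the ipsi libraries, so these counts are no measure of the whole lists. Without sMCAO ipsi the higher counts were 1 of 12 for heat shock genes, 1 of 14 for junction genes, 1 of 20 for lipid genes, 1 of 3 for filament genes, 2 of 8 for extracellular proteases and 0 for the hypoxia, cytokine, transcription factor and complement lists. DESeq2 called 1 heat shock gene and 1 junction gene higher. In the other ipsi astrocytes 7.84% of all genes were higher than in Sham and 7.36% lower. Junction genes gave 5 higher and 0 lower of 15 there, heat shock genes 2 and 0 of 13, and filament genes 1 and 0 of 3. Lipid genes gave 4 and 5 of 21, hypoxia genes 1 and 2 of 16, and cytokines 1 and 1 of 4. Extracellular proteases gave 2 and 0 of 7 and injury transcription factors 3 and 0 of 11. Clu, the secreted chaperone clusterin, stood at 1077 and 1370 CPM in members, 561 and 568 in other ipsi astrocytes and 121 and 138 in Sham (3.23 ± 0.29 in members against Sham, edgeR adjusted p = 6.94e-07).

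**Figure D4:**
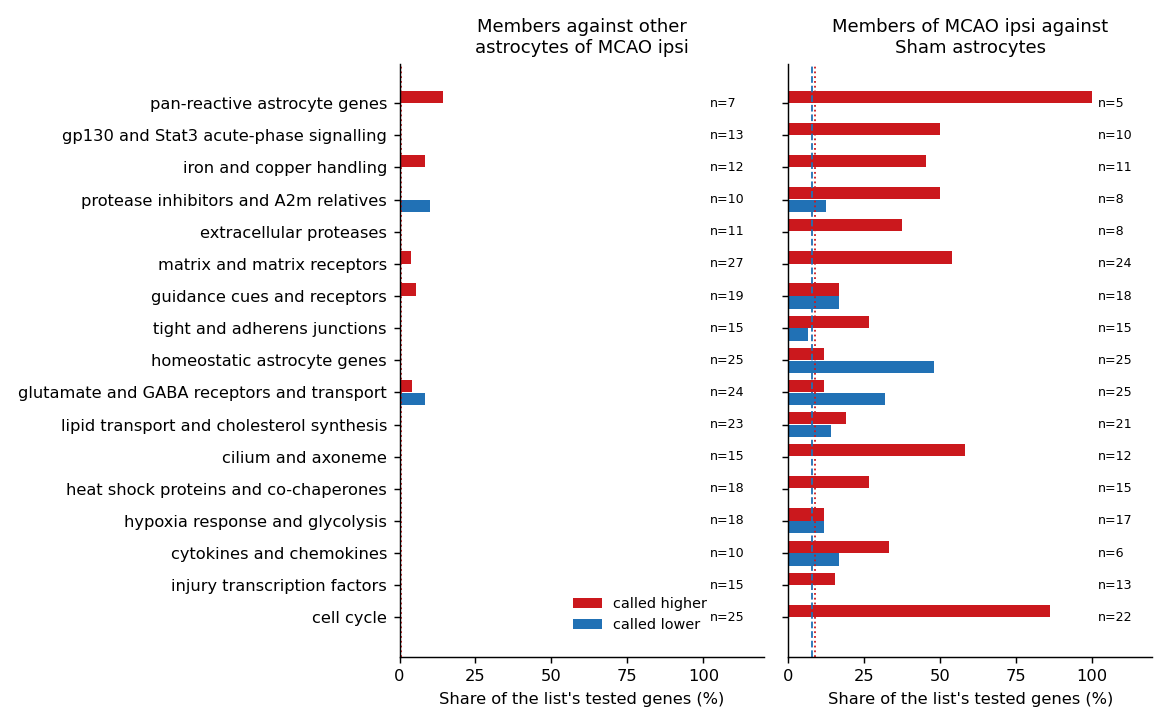
Percent of tested genes of each list that were called higher (red) or lower (blue) in members against other ipsi astrocytes and against Sham astrocytes, with the number tested at the right; the dotted red and dashed blue lines give the percent of all tested genes called. Against Sham 19 of 22 cell cycle genes and 5 of 5 pan-reactive genes were higher, of which 10 and 3 tested genes had 0 UMIs in Sham and passed the filter through the ipsi libraries; against other ipsi astrocytes 0 of 25 and 1 of 7 were higher.

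The largest decreases against Sham were mostly of genes with high expression in neurons. They were Grin2a, Ryr2, Galntl6, Cntnap5c, Syn2, Cntnap5a, Gabrb2, Pak5, Hif3a and Epha6, with log2 differences from -6.07 (Grin2a) to -4.66 (Epha6). Galntl6, a glycosyltransferase, stood at 63.3 and 8.42 CPM in members of mMCAO ipsi and sMCAO ipsi against 639 and 518 in Sham L and Sham R. The estimated share of neuronal RNA was 19.1% in Sham L and 21.8% in Sham R astrocytes, so it moved with these genes. With it subtracted Galntl6, Pak5, Hif3a and Epha6 kept their call, Cntnap5c, Cntnap5a and Gabrb2 lost it (adjusted p = 0.222, 0.0525 and 0.0573, edgeR) at log2 differences of -6.20, -7.76 and -7.33, further from 0 than the -5.01, -4.78 and -4.74 before subtraction, and Grin2a, Ryr2 and Syn2 had too few counts left to be tested. Hif3a, a hypoxia-inducible factor subunit, had 1 UMI in each member sum and 32 over both Sham sums, and 19 and 31 in the other astrocytes of mMCAO ipsi and sMCAO ipsi.

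Members of severe and moderate infarcts were compared as ratios of their sums, with no test because each is 1 library. Of 1629 genes with at least 50 UMIs, 100 had a counting interval above 1 (higher in sMCAO ipsi) and 109 below it. Such intervals leave out the spread between nuclei and between rats, and some leave out 1 by counting error alone. A total of 13 genes had 0 UMIs in mMCAO ipsi. With no count in mMCAO ipsi the ratio has only a lower bound and cannot be ranked against the others. The named ones, which had the most UMIs in sMCAO ipsi, were Emid1 (68 UMIs), Raver2 (67), Knl1 and Cbx5 (60 each) and Atxn10 (58). In that order, the lower limits of their counting intervals were 1.59, 1.57, 1.40, 1.40 and 1.35. Knl1 is a kinetochore gene and Cbx5 a heterochromatin protein. Among nuclei with at least 1500 UMIs the intervals of Cbx5 and Atxn10 no longer left out 1.

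The lowest ratio was that of Dnah12, at 0.253 (0.152 to 0.438), from 60 UMIs in sMCAO ipsi and 21 in mMCAO ipsi. Among the other astrocytes the same ratio was 1.47 (0.943 to 2.33). Lrmda and Mpp6 followed at 0.295 each (Mpp6 with an interval of 0.174 to 1.92 around 0.493 in nuclei with at least 1500 UMIs), then Pde4b, a cAMP phosphodiesterase, and Nav3, a microtubule-binding protein, at 0.308 each. Nav3 was also lower in sMCAO ipsi among other astrocytes, at 0.531 (0.443 to 0.636), while Pde4b was at 0.887 (0.743 to 1.06). Members of sMCAO ipsi and mMCAO ipsi also differed in depth, at medians of 2443 and 1569 UMIs.

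Members with only Cp and members with only A2m could be set side by side in sMCAO ipsi alone, where they numbered 32 and 29 nuclei with 93017 and 78371 UMIs. Of 559 genes, 68 had an interval above 1, higher with Cp only, and 66 below it, with no test. These intervals cover counting error only and leave out the spread between nuclei. The genes named are the extremes of these ratios, so they do not establish 2 kinds of member. Higher with Cp only were Nrg1, the growth factor neuregulin-1 (ratio 3.76, 2.04 to 7.48), Trpm3 (3.61, 2.53 to 5.29), the phospholipase gene Plch1 (3.05), the adhesion gene Sdk1 (3.02) and the Slit receptor gene Robo1 (2.67). Higher with A2m only were Cd44 (0.225, 0.121 to 0.395), Tnc (0.270, 0.178 to 0.401), Gcnt2 (0.294), Sgip1 (0.310) and Glul, which encodes glutamine synthetase (0.335). Of the filament genes, Vim was at 1353 CPM with A2m only and 527 with Cp only, and Gfap at 7541 and 5214. Itih3 and Kcnd2, both lower in members as a whole, had ratios of 2.08 (1.11 to 4.08) and 1.85 (1.19 to 2.92).

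**Figure D5:**
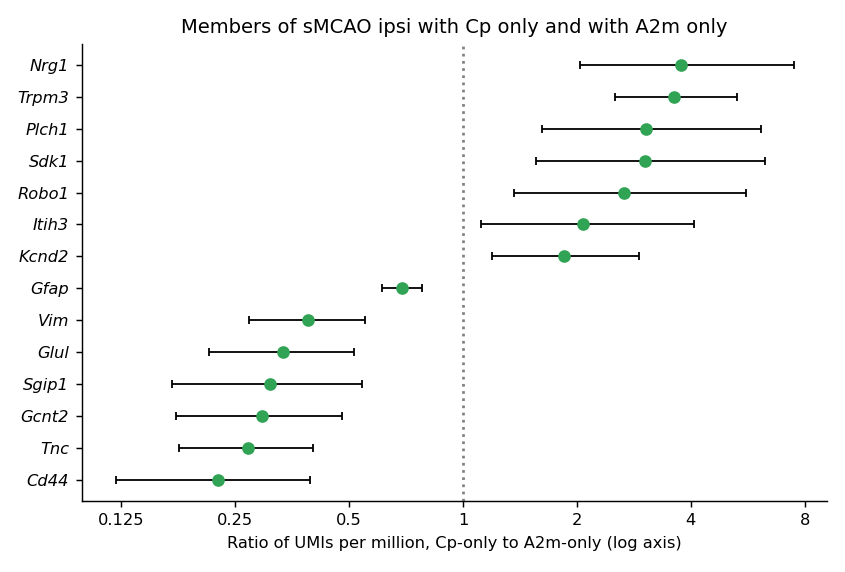
Ratio of CPM in members with Cp only (32 nuclei) to members with A2m only (29 nuclei) in sMCAO ipsi, on a log axis, with 95% counting intervals; the line marks a ratio of 1. Trpm3 and Nrg1 lie above 3.6 and Cd44 and Tnc below 0.3.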

How the data were processed

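Single nuclei were profiled with the 10x 5' kit. The deposited counts are raw UMI counts per gene and nucleus that the authors made with Cell Ranger 7.0.0 on mRatBN7.2, intronic reads included. Correction for free RNA and removal of doublets by the authors came later and are not in these values. No doublet caller was run here. Nuclei with 3 or more UMIs of another cell type's markers were left out as an alternative. UMIs were summed per library and class (at least 10 nuclei) and tested with edgeR 4.0.16 (TMM, filterByExpr, quasi-likelihood test) in R 4.3.3, with DESeq2 1.42.0 as an alternative, and the script was tested on simulated data. The 5 astrocyte gate genes and 3 neuron gate genes stayed in the fits but were not tested. In the comparison with Sham, member and other sums of 1 library entered as separate sums, and the lone arm left when a library was dropped was assumed to vary like the others. Libraries are pools of rats. Both Sham libraries come from the same 4 rats, so their spread is between hemispheres of 1 pool, and ipsi and contra libraries of 1 pool were taken as separate, so the p-values do not measure the spread between animals.

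Free neuronal RNA was estimated from neuron markers and the neuron profile of the same library. Intervals of shares were exact (Clopper-Pearson) and intervals of ratios came from counts only. Of the symbols in the files 2426 genes shared theirs with another gene. Any pair of libraries shared 118 to 280 barcodes, 1.36% to 2.16% of the smaller library, with at most 3 members of a library among them. The text names genes of the lists and the 10 called increases and decreases largest by fitted log2 difference. These needed the same direction in every library and at least 30 UMIs. It also names the 5 highest and lowest ratios among genes with at least 50 UMIs. Markers, members and gene lists were chosen with earlier results of these data known. Planned tests of members between groups could not be fitted, because Sham held 1 member and MCAO contra 5.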

Additional observations from a re-analysis of the deposited data

Results flagged for a closer look

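Cp was also seen outside astrocytes, in nuclei that no comparison used. Endothelial-led, ependymal-led and fibroblast-led nuclei of the Sham libraries held at most 1 UMI of Cp per library, and Sham L and Sham R held 0 myeloid-led nuclei, so that class has no Sham level. In myeloid-led nuclei Cp stood at 565 CPM in mMCAO ipsi and 568 in sMCAO ipsi, with 376 and 322 in mMCAO contra and sMCAO contra. In ependymal-led nuclei it stood at 337 and 794 in the ipsi libraries and at 46.4 and 112 in the contra libraries. In endothelial-led nuclei it stood at 210 and 198, with 34.1 in mMCAO contra and 212 in sMCAO contra. In fibroblast-led nuclei it stood at 672 in sMCAO ipsi and 352 in mMCAO ipsi, at 806 in the 8 such nuclei of sMCAO contra, at 67.6 in mMCAO contra and at 111 in the 2 such nuclei of Sham L. The contra values rest on 1 to 26 UMIs of Cp per class and library. Classes were named from the marker list that led each nucleus, and none of these levels was tested.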

How the results depend on the processing

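The comparison of members with other astrocytes gave the most variable counts. Against 30 genes higher and 9 lower, DESeq2 called 1 and 0. Without the library block, edgeR called 2 and 0. Other astrocytes restricted to nuclei with no UMI of Cp or A2m gave 91 and 60, and subtraction of free neuronal RNA 66 and 35. The lower count was 5 without nuclei with 3 or more UMIs of another list, 17 in nuclei with at least 1500 UMIs and 20 with members of at least 3 UMIs of Cp and A2m. Each of the 30 and 9 genes kept its direction in every setting where it was tested. Leaving out a library left no residual degree of freedom and was not run. The ratios within each library describe the libraries from which the genes were called and do not replace it. The planned fit of ipsi against contra members with the rat pool as replicate block was not run, because MCAO contra held 1 and 4 members, fewer than 10 nuclei per sum. A minimum of 20 nuclei per sum left every sum unchanged, so it bears on no result.

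Members against Sham gave 191 higher and 213 lower with DESeq2, 279 and 292 without nuclei with another list, and 307 lower with neuronal RNA subtracted. Leaving out 1 library gave 134 to 834 higher and 207 to 594 lower, and without sMCAO ipsi 434 of the 459 higher genes still tested kept their direction. For other ipsi astrocytes against Sham the counts were 154 and 201 with DESeq2, 652 higher with no filter, 236 and 244 without nuclei with another list, 209 lower with neuronal RNA subtracted, and 150 to 620 higher and 143 to 456 lower leaving out 1 library.

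The share of members in sMCAO ipsi was 51.0% with a threshold of 1 UMI of Cp and A2m, 23.8% with 3, 26.1% without nuclei with another list and 19.3% at 1000 UMIs. In mMCAO ipsi it was 21.9% and 3.23% with thresholds of 1 and 3. Among astrocytes with at least 1500 UMIs it was 22.2% over 9 nuclei in sMCAO contra and 9.09% over 121 in mMCAO ipsi. In mMCAO contra it was 3.85% with a threshold of 1. It was 0 in mMCAO contra and Sham R with a gate of 10 UMIs, a threshold of 3, at least 1500 UMIs or at 1000 UMIs, and in mMCAO contra without nuclei with another list. Of the counts of called genes and shares of members under alternatives 49 moved and 52 did not. Of the values for single genes 566 stayed on their side of the threshold and 69 lost their call. The cause of these changes was not tested. Alternatives added after the data were seen were the fit without the block, members of at least 1 UMI against none, and all those for members against Sham. The members of mMCAO ipsi held 31572 UMIs in all.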
